A study of Mus musculus with 18 samples.

Results

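The Bcl2 family decides at the mitochondrion whether a T cell lives or dies, and 10 of its genes were followed here through naive and memory-phenotype CD8 T cells of Dock2-deficient and wild-type (WT) mice. They were the anti-apoptotic genes Bcl2, Bcl2l1 and Mcl1, the BH3-only genes Bcl2l11, Bid, Bbc3, Pmaip1 and Bad, and the effector genes Bax and Bak1. They were picked by symbol, and all 10 were found among the 46983 genes of the table. A gene was tested if its value reached 10 in at least 4 libraries, which 9 members did and Bbc3 did not.

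The series holds 18 RNA-seq libraries. There were 5 Dock2-deficient memory, 4 WT memory, 5 Dock2-deficient naive and 4 WT naive libraries. Memory cells were CD44hi and naive cells CD44lo, and the labels name no growth or treatment step. The genotype of the Dock2-deficient mice was Dock2-Hsd/Hsd (Dock2-/-). Dock2 codes for a protein that switches on the small GTPase Rac in leukocytes. The strain field read C57BL/6J for every library, while descriptions of the Dock2-deficient libraries carried C57L6NHsd, so substrain and genotype cannot be told apart. Age was not stated. Whether replicates came from different mice is not stated either, and the p-values then cover only library-to-library spread, which may be technical.

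As background, BCL2, BCL-XL (from Bcl2l1) and MCL1 hold the effectors BAX and BAK1 in check. BH3-only proteins such as BIM (from Bcl2l11) bind these guardians or the effectors, and active BAX or BAK1 opens the outer mitochondrial membrane so that cytochrome c leaves and caspases are activated. Signals from interleukin 7 and interleukin 15 are known to keep BCL2 high in resting T cells, and BIM is known as the main killer of T cells that lose such signals. The RNA values below do not measure the proteins, several of which are controlled after translation.

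The cells carried the T cell genes that their labels call for. Summed over 5 CD8 T cell markers, values were 6376 to 11916 in Dock2-deficient memory, 5499 to 7180.2 in WT memory, 7421 to 10503 in Dock2-deficient naive and 6869 to 7744 in WT naive libraries. Cd44 was 172 to 222 in Dock2-deficient memory and 124 to 220.4 in WT memory libraries, against 0 to 21.7 in Dock2-deficient naive and 3.39 to 9.78 in WT naive libraries. The 8 markers of memory and naive state summed to 8350 to 15016 in Dock2-deficient memory and 8843 to 11701 in WT memory, against 4849 to 6834 in Dock2-deficient naive and 5044 to 5829 in WT naive libraries. Among them the memory genes Ccl5 and Cxcr3 also differed between the naive groups without overlap: Ccl5 was 18.9 to 102.6 in Dock2-deficient naive and 0 to 5.42 in WT naive libraries, and Cxcr3 13.6 to 92.2 in Dock2-deficient naive and 1.13 to 8.38 in WT naive libraries. Sums over 4 B cell markers reached at most 57.5, over 5 myeloid markers 44.5, over 4 CD4 T cell markers 27.95 and over 3 erythroid markers 165. Depth was 2215987 to 8257768 expected reads a library, of which the ribosomal RNA gene Rn18s-rs5 took 37.0% to 69.4%. WT memory library 4 and Dock2-deficient memory library 5 stood apart from the others, with principal component positions of 113.9 on the second and 82.8 on the first component and with the highest and the lowest ribosomal share. Xist marked all WT libraries and library 1 of each Dock2-deficient group as female, and the remaining 4 Dock2-deficient libraries of each state were male. Dock2 RNA was present in every library, at 61.0 to 279.6 in Dock2-deficient memory and 399.7 to 844 in WT memory libraries, which did not overlap, and at 171 to 373 in Dock2-deficient naive and 288 to 514 in WT naive libraries, which did. These values do not measure the protein.

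In Dock2-deficient mice, 2 guardian genes, Bcl2 and Bcl2l1, rose in memory cells together with Bcl2l11, the BH3-only gene whose protein opposes them. In WT mice the memory and naive libraries of these 3 genes did not overlap either, but of the 3 only Bcl2l1 passed the test. Such a lack of overlap with memory higher was found for 2.35% of all genes in Dock2-deficient and 4.99% in WT mice. Mcl1, Bid, Bad, Bax and Bak1 passed in no comparison. Calls are from limma with Benjamini-Hochberg adjustment over 9437 genes. In Dock2-deficient mice 3 of the 9 tested members were higher in memory cells and 0 were lower, where 1.77% of all genes were higher and 1.05% lower. In WT mice 2 were higher and 0 lower, where 1.88% of all genes were higher and 0.646% lower; the 2 were Bcl2l1 and Pmaip1. The median log2 fold change of the 9 members was 0.23 in Dock2-deficient mice, against -0.01 over all genes, and 0.75 in WT mice, against -0.02. In bulk RNA, more cells expressing a gene and more RNA per cell cannot be told apart. The natural killer marker sum moved with the memory state, at 1.78 to 17.4 in Dock2-deficient memory and 24.5 to 35.9 in WT memory libraries, against 0 to 4.76 in Dock2-deficient naive and 0 to 2.26 in WT naive libraries. So did the gamma delta T cell sum over 5 markers, at 74.4 to 133 in Dock2-deficient memory and 60.7 to 128 in WT memory libraries, against 32.0 to 66.6 in Dock2-deficient naive and 3.63 to 5.65 in WT naive libraries. Of these 5, Blk and Sox13 were at 0 in all Dock2-deficient memory libraries and Blk and Cd163l1 in all WT naive libraries, and Cd163l1 had the highest median of the 5 in both memory groups. Trdc went against the sum in Dock2-deficient mice, at 6.89 to 13.6 in memory and 19.5 to 45.7 in naive libraries. In WT mice it went with the sum, at 8.32 to 18.9 in memory and 2.43 to 5.65 in naive libraries. Tcrg-C1 averaged 2.99 in Dock2-deficient memory and 4.83 in Dock2-deficient naive libraries, and 11.9 in WT memory and 0.349 in WT naive libraries. The part of either sum in the members' values was not tested.

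**Figure D1:**
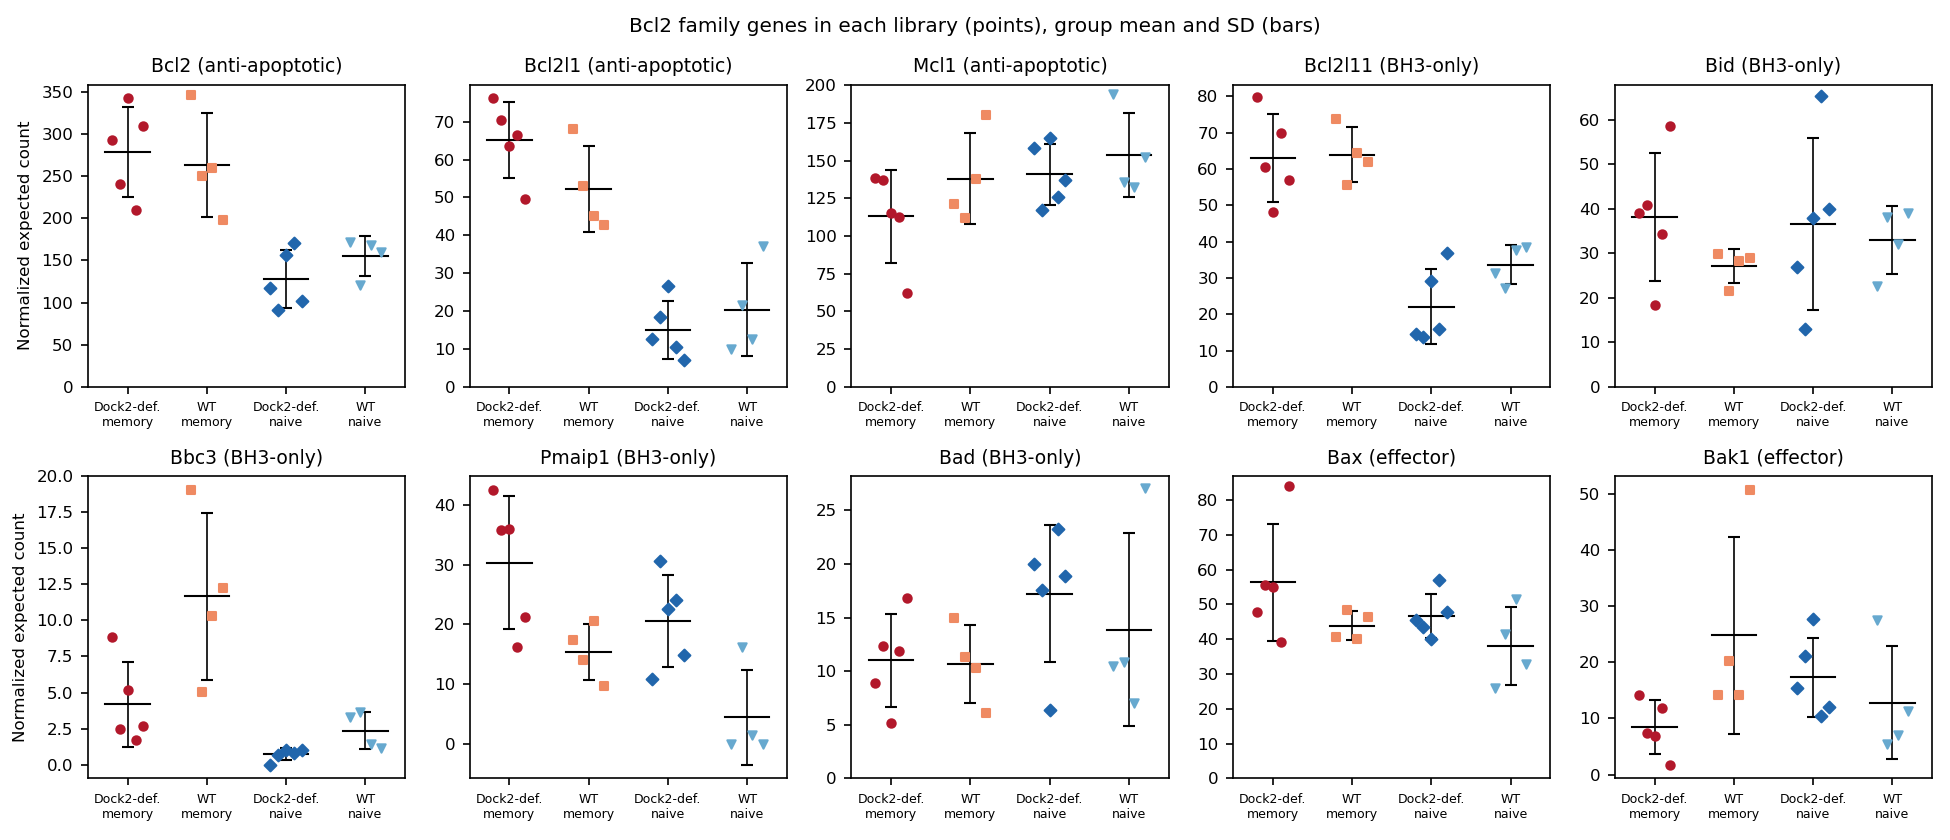
Normalized expected count of each member (vertical axes, 1 panel a gene) in each library (points) of the 4 groups (horizontal axes), with the group mean and SD as bars. Bcl2, Bcl2l1 and Bcl2l11 have no naive library as high as the lowest memory library of the same genotype, while Mcl1, Bid, Bad, Bax and Bak1 overlap between states.

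The starts of these 3 genes are shown because the genes moved together between states and their proteins act on each other. Each run is the 250 bases before a RefSeq transcription start, 5′ to 3′ on the gene's own strand, in GRCm38.p6, whose coordinates are those of mm10. The table holds 1 start for Bcl2, 3 for Bcl2l1 and 2 for Bcl2l11, and the start nearest the gene's 5′ end in GENCODE M21 was taken, so what follows holds for these starts alone. Bcl2 (ENSMUSG00000057329) lies at chr1:106538178-106714274 on the minus strand, Bcl2l1 (ENSMUSG00000007659) at chr2:152780668-152831728 on the minus strand and Bcl2l11 (ENSMUSG00000027381) at chr2:128126038-128162547 on the plus strand (GENCODE M21). The runs cover chr1:106714291-106714540, chr2:152831729-152831978 and chr2:128125788-128126037. Capitals mark the only match to any of the 4 motifs searched.
Bcl2: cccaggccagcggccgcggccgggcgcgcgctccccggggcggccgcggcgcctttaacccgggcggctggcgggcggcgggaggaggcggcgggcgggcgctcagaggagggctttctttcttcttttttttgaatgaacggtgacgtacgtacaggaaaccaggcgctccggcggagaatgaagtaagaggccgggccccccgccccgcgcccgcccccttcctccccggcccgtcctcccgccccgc
Bcl2l1: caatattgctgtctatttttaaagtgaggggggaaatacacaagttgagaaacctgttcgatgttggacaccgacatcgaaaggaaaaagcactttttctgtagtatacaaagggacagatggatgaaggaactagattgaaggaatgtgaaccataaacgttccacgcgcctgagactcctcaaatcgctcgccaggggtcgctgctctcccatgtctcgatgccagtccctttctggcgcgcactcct
Bcl2l11: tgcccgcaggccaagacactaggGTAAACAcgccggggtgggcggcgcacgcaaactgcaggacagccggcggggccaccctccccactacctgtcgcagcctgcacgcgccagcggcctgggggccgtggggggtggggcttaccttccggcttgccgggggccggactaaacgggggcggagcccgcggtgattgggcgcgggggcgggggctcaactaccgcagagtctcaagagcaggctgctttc

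The 3 starts are unlike in composition although the genes moved together. G and C made up 74.8% of the Bcl2 run and 72.0% of the Bcl2l11 run, both above the upper quartile of 61.2% over 32536 RefSeq promoter windows of this length, and 47.6% of the Bcl2l1 run, between the lower quartile of 45.2% and the median of 52.4%. CpG pairs numbered 36 in the Bcl2, 24 in the Bcl2l11 and 12 in the Bcl2l1 run, against a median of 6. The motifs, each read on both strands, were TTCNNNGAA (STAT factors, in 7.04% of windows), GGTGTGA (T-box factors, 3.33%), TGTGGT (Runx factors, 13.96%) and GTAAACA (forkhead factors, 3.17%). Of the 9 members with a window, all but Pmaip1, Bcl2l11 held GTAAACA at -227 to -221 from the start and Bak1 held TGTGGT at -221 to -216. The RefSeq start used lies 382 bases from the gene's 5′ end in GENCODE M21 for Bak1 and 1190 bases for Bbc3. A match describes the letters and is not a measured binding site, and the other 7 windows hold none of these letters.

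Bcl2 is the founding guardian of the family. Its normalized expected count was 293, 241, 342, 209.5 and 309.4 in Dock2-deficient memory libraries and 346, 249.9, 259.5 and 198 in WT memory libraries. Naive libraries held less, with 118, 91.7, 156, 171 and 102 in Dock2-deficient naive libraries and 172, 120.3, 169 and 159.6 in WT naive libraries. Every memory library was thus above every naive one, in both genotypes and across them. The means were 279 ± 53.3 in Dock2-deficient memory and 128 ± 34.4 in Dock2-deficient naive cells (SD, n = 5 each), a log2 fold change of 1.14 ± 0.21 (SE, limma adjusted p = 0.0021). That call was lost when libraries were scaled to one total outside ribosomal and mitochondrial genes (0.82, adjusted p = 0.055), where the median of all genes was -0.31. In WT cells they were 263 ± 61.5 in memory and 155 ± 23.8 in naive cells (SD, n = 4 each), and 0.75 ± 0.23 on the log2 scale did not pass (adjusted p = 0.12). Groups that did not overlap, with memory higher, were found for 2.35% of genes in Dock2-deficient and 4.99% in WT mice. The antisense gene D630008O14Rik, which covers 6.09% of the exon bases of Bcl2, averaged 7.40.

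Bcl2l1, which encodes BCL-XL, rose in memory cells of both genotypes. It stood at 76.3, 70.4, 63.6, 66.4 and 49.5 in Dock2-deficient memory libraries and at 68.0, 52.9, 45.1 and 42.8 in WT memory libraries. Naive libraries held 12.7, 18.3, 26.6, 10.4 and 6.97 in Dock2-deficient and 9.91, 21.7, 12.6 and 37.3 in WT mice. Again no naive library reached the lowest memory library, though WT naive library 4 came closest. Bcl2l1 was 65.2 ± 10.003 in Dock2-deficient memory and 15.0 ± 7.69 in Dock2-deficient naive cells (SD, n = 5 each), a difference of 2.17 ± 0.35 on the log2 scale (adjusted p = 0.00052). It was 52.2 ± 11.4 in WT memory and 20.4 ± 12.3 in WT naive cells (SD, n = 4 each), or 1.47 ± 0.39 (adjusted p = 0.045). The WT call was narrow: of the 8 fits that left out 1 WT library it passed only in the one without WT naive library 4, and the adjusted p ranged from 0.010 to 0.16. It passed in 4 of 11 other settings (adjusted p 0.024 to 0.13).

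Mcl1 (ENSMUSG00000038612, chr3:95658788-95663176, plus strand) encodes the short-lived guardian that T cells need at every stage. It was 138, 137, 115, 112 and 61.9 in Dock2-deficient memory libraries and 121, 112, 138 and 180.1 in WT memory libraries, against 158, 118, 165, 126 and 137 in Dock2-deficient naive and 194, 136, 133 and 152 in WT naive libraries. All groups overlapped, and both ends of the memory range were the libraries that stood apart, Dock2-deficient memory 5 at the bottom and WT memory 4 at the top. The log2 fold change of memory over naive was -0.36 ± 0.22 in Dock2-deficient mice (adjusted p = 0.51) with a 95% interval of -0.81 to 0.10, and -0.16 ± 0.24 in WT mice (adjusted p = 0.88) with an interval of -0.67 to 0.34.

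Bcl2l11 encodes BIM, a BH3-only protein that binds all of these guardians. Its values were 79.9, 60.5, 48.1, 69.8 and 56.97 in Dock2-deficient memory and 73.8, 55.6, 64.5 and 62.1 in WT memory libraries. In naive libraries they were 14.6, 13.6, 29.2, 16.04 and 36.9 in Dock2-deficient and 31.4, 27.1, 37.8 and 38.4 in WT mice. As with Bcl2, all memory libraries were above all naive ones. The means were 63.1 ± 12.2 in Dock2-deficient memory and 22.1 ± 10.4 in Dock2-deficient naive cells (SD, n = 5 each), or 1.56 ± 0.27 on the log2 scale (adjusted p = 0.00095). In WT cells the means of 64.0 ± 7.55 in memory and 33.7 ± 5.39 in naive cells (SD, n = 4 each) gave 0.91 ± 0.30, which did not pass (adjusted p = 0.14).

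**Figure D2:**
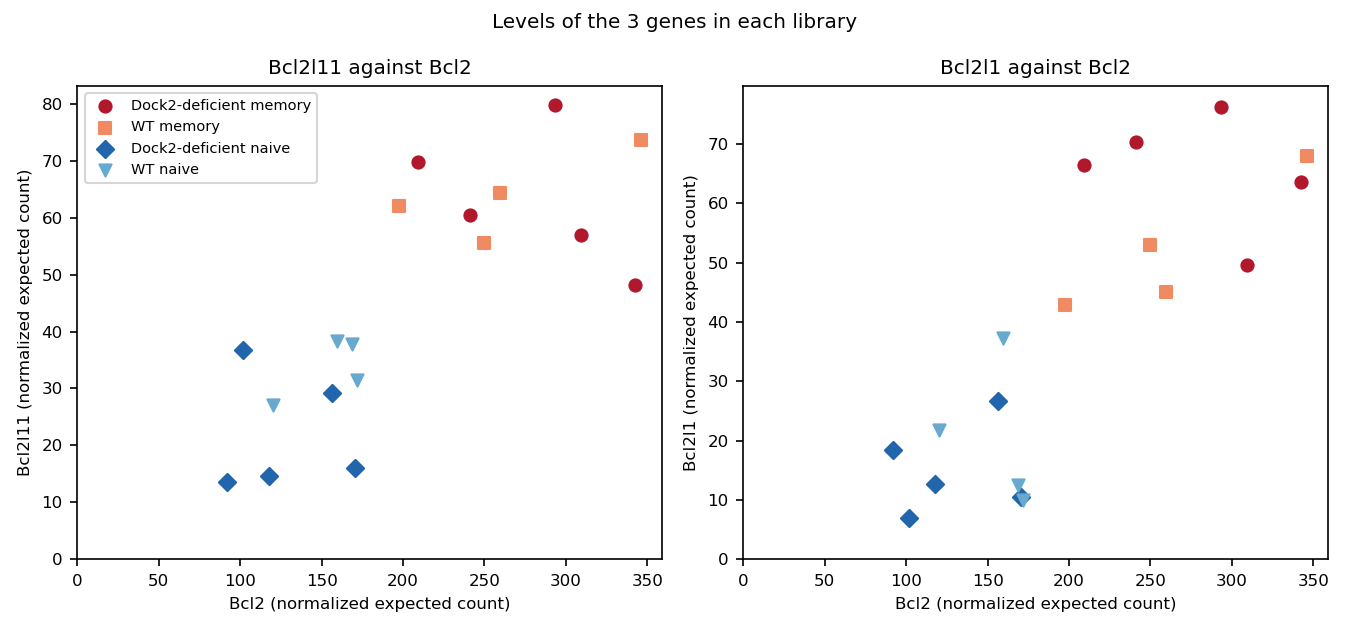
Bcl2 (horizontal axes) against Bcl2l11 and Bcl2l1 (vertical axes), as normalized expected counts in each of the 18 libraries, with a colour for each group. Memory libraries lie at the upper right and naive libraries at the lower left, and with group means taken out r is 0.07 in both panels.

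Averaging the memory over naive difference over both genotypes, a contrast added after the data were seen, gave these genes more libraries. Bcl2 was higher by 0.94 ± 0.16 on the log2 scale (adjusted p = 4.0e-04), Bcl2l1 by 1.82 ± 0.26 (adjusted p = 6.2e-05) and Bcl2l11 by 1.24 ± 0.20 (adjusted p = 2.6e-04). With Pmaip1, 4 members were called higher and 0 lower, where 3.43% of all genes were higher and 2.16% lower. With the female library of each Dock2-deficient group left out, 4 male memory and 4 male naive libraries were compared in Dock2-deficient mice. The log2 fold changes were 1.10 for Bcl2, 2.08 for Bcl2l1 and 1.36 for Bcl2l11 and all 3 passed (adjusted p at most 0.021). The WT libraries, all female, stayed in that fit and shared in its estimate of the spread. In the averaged contrast these 3 stayed below the threshold of 0.05 in all 18 fits without 1 library. The genotypes could not be shown to differ in the size of these changes: the differences between them (Dock2-deficient minus WT) were 0.40 for Bcl2 (95% interval -0.26 to 1.05), 0.70 for Bcl2l1 (-0.39 to 1.78) and 0.65 for Bcl2l11 (-0.18 to 1.48).

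These 3 genes ran together over all libraries but not within groups. Over the 18 libraries Pearson's r of log2 values was 0.78 between Bcl2 and Bcl2l11, 0.78 between Bcl2 and Bcl2l1 and 0.77 between Bcl2l1 and Bcl2l11. Once each group's mean was taken out, r was 0.07, 0.07 and below 0.01 in size. These are descriptions over libraries that share depth and scaling.

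Pmaip1 (ENSMUSG00000024521, chr18:66458533-66465565, plus strand) encodes NOXA, the BH3-only protein that binds MCL1. It was 42.6, 35.8, 36.1, 16.2 and 21.2 in Dock2-deficient memory libraries and 17.4, 13.998, 20.6 and 9.62 in WT memory libraries. In naive cells it was 10.9, 30.6, 22.5, 24.1 and 14.9 in Dock2-deficient libraries, but 0, 16.3, 1.40 and 0 in WT libraries. WT naive cells were thus the low group, and WT naive library 2 was the exception within it. That library's value rests on 9 expected reads, and the other WT naive libraries held 0 to 1 read. In WT mice the log2 fold change of memory over naive was 2.64 ± 0.66 (adjusted p = 0.032), although the groups overlapped. With a pseudocount of 10 in place of 1 it was 0.93 (adjusted p = 0.14), over 10 alternative settings the adjusted p was 0.018 to 0.21, and of 8 fits without 1 WT library only those without WT naive library 2 or WT memory library 4 passed. In Dock2-deficient mice it was 0.54 ± 0.59 (adjusted p = 0.75). Averaged over genotypes it was 1.59 ± 0.44 (adjusted p = 0.037), and 12 of 18 fits without 1 library did not pass, with adjusted p up to 0.088. It also missed with a pseudocount of 10, with no filter and with scaling to one total outside ribosomal and mitochondrial genes (adjusted p = 0.069, 0.10 and 0.075).

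Bbc3 (ENSMUSG00000002083, chr7:16308393-16318205, plus strand) encodes PUMA, a BH3-only protein best known as a target of p53, and rested on few reads. It was 8.88, 2.47, 5.16, 1.70 and 2.65 in Dock2-deficient memory libraries and 19.1, 5.04, 10.3 and 12.2 in WT memory libraries. In naive libraries it was 0, 0.679, 1.02, 0.802 and 0.996 in Dock2-deficient and 3.30, 3.62, 1.40 and 1.13 in WT mice. Memory libraries were above naive libraries within each genotype, but these values stand for 0 to 23 expected reads. Such a lack of overlap was found for 2.35% of the tested genes in Dock2-deficient and 4.99% in WT mice, a set without Bbc3. In a fit without the filter, differences of 1.48 ± 0.50 in Dock2-deficient and 1.87 ± 0.56 in WT mice on the log2 scale did not pass (adjusted p = 0.31 and 0.18). Averaged over genotypes, 1.68 ± 0.38 passed in that fit (adjusted p = 0.021). Between genotypes it did not pass: in memory cells it averaged 4.17 ± 2.93 in Dock2-deficient (SD, n = 5) and 11.7 ± 5.80 in WT libraries (SD, n = 4), with overlap, and -1.33 ± 0.53 on the log2 scale (unadjusted p = 0.022, adjusted p = 0.45). In naive cells its values rested on 0 to 2 expected reads in Dock2-deficient and 1 to 6 in WT libraries. The difference there was -0.94 ± 0.53 (adjusted p = 0.83), and averaged over states it was -1.14 ± 0.38 (unadjusted p = 0.0073, adjusted p = 0.33).

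Bid and Bad, the remaining BH3-only genes, overlapped between memory and naive cells in both genotypes. Bid (ENSMUSG00000004446) lies at chr6:120891930-120916853 on the minus strand and Bad (ENSMUSG00000024959) at chr19:6941861-6951899 on the plus strand. Bid, whose protein is cut by caspase 8 and so links death receptors to mitochondria, ranged from 18.5 to 58.5 in Dock2-deficient memory, 21.4 to 29.8 in WT memory, 12.9 to 65.3 in Dock2-deficient naive and 22.6 to 39.1 in WT naive libraries. Its log2 fold change of memory over naive was 0.15 ± 0.35 in Dock2-deficient and -0.25 ± 0.40 in WT mice. Bad, whose protein is held inactive by phosphorylation, ranged from 5.16 to 16.8 in Dock2-deficient memory, 6.12 to 14.9 in WT memory, 6.41 to 23.3 in Dock2-deficient naive and 6.99 to 27.1 in WT naive libraries. Its log2 fold change was -0.58 ± 0.43 in Dock2-deficient and -0.24 ± 0.48 in WT mice. Reads were not assigned by strand, so part of Bid cannot be told apart from Bcl2l13 on the other strand, which covers 17.7% of the exon bases of Bid and averaged 61.8, nor part of Bad from Gpr137, which covers 20.5% and averaged 4.07.

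Bax and Bak1 encode the effectors, which form the pores. Bax (ENSMUSG00000003873) lies at chr7:45461697-45466898 and Bak1 (ENSMUSG00000057789) at chr17:27019810-27029009, both on the minus strand. Bax was 47.9, 55.6, 55.0, 39.2 and 84.0 in Dock2-deficient memory libraries and 40.6, 48.5, 40.0 and 46.3 in WT memory libraries, against 45.5, 43.5, 39.9, 56.9 and 47.8 in Dock2-deficient naive and 25.9, 41.6, 51.7 and 32.7 in WT naive libraries. Apart from Dock2-deficient memory library 5 at the top, the groups lay close together. The log2 fold change of memory over naive was 0.23 ± 0.23 in Dock2-deficient and 0.24 ± 0.26 in WT mice (adjusted p = 0.73 and 0.81). Bak1 was 14.2, 7.41, 6.87, 11.9 and 1.77 in Dock2-deficient memory libraries and 14.1, 20.2, 14.2 and 50.7 in WT memory libraries, against 15.5, 21.1, 27.6, 10.4 and 11.9 in Dock2-deficient naive and 27.5, 5.42, 6.99 and 11.3 in WT naive libraries. Its log2 fold change of memory over naive was -1.08 ± 0.51 in Dock2-deficient and 0.95 ± 0.57 in WT mice, opposite in sign, and neither passed (adjusted p = 0.36 and 0.56). Bak1 rested on few reads in part, with 2 to 14 expected reads in Dock2-deficient memory and 3 to 50 in WT naive libraries. Dock2-deficient naive libraries held 12 to 54 and WT memory libraries 11 to 58. Ggnbp1 on the other strand covers 18.2% of the exon bases of Bak1 and averaged 1.39.

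Bak1, Mcl1 and Bax moved with the ribosomal share of a library. After group means were taken out, Pearson's r with that share over 18 libraries was 0.83 for Bak1, 0.69 for Mcl1 and -0.72 for Bax. Without both libraries that stood apart it was 0.67, 0.20 and -0.68 over 16 libraries. Depth went with Bak1 and Bax too. With log10 of expected reads, r within groups was 0.48 for Bak1, 0.05 for Mcl1 and -0.34 for Bax over 18 libraries. Over the 16 it was 0.74, 0.21 and -0.59. Bak1 and Bax ran against each other within groups (r = -0.73, and -0.78 without both libraries). For Bcl2, Bcl2l1 and Bcl2l11 the r with the ribosomal share was -0.45, 0.21 and 0.04. The part of the ribosomal share or of depth in the Bak1, Mcl1 and Bax values was not tested.

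**Figure D3:**
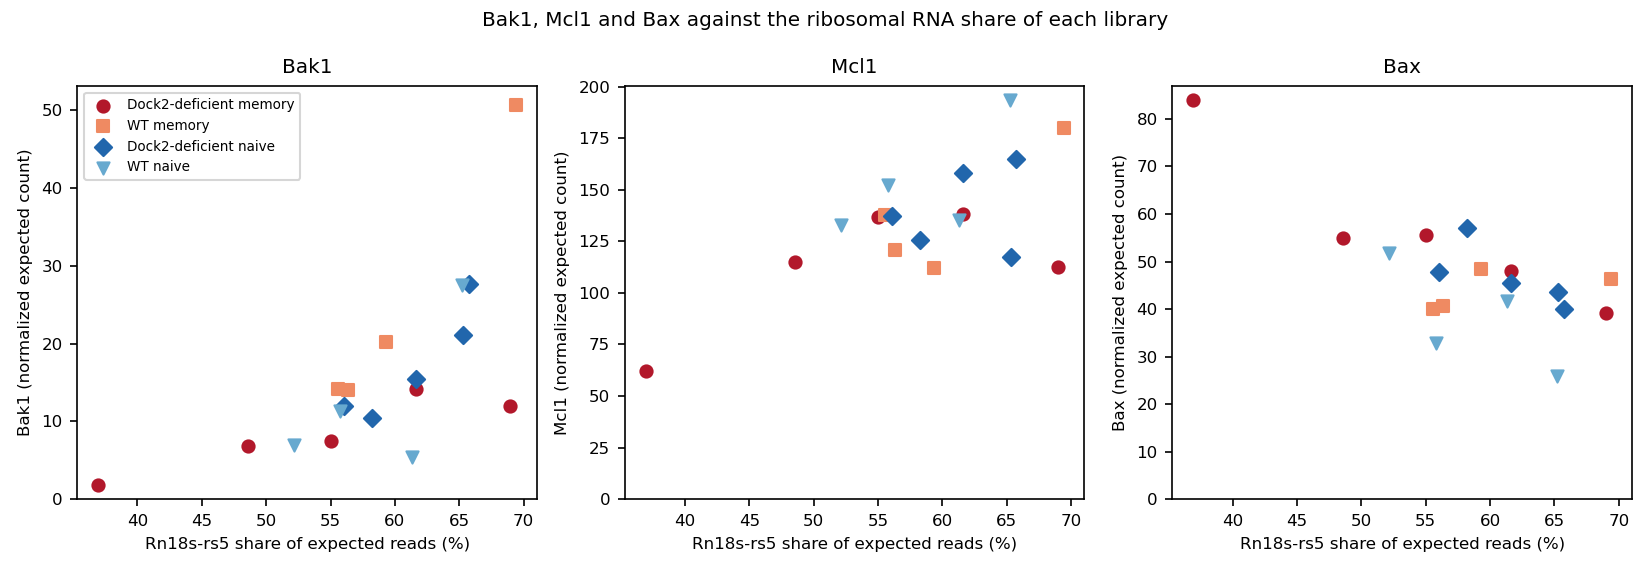
Bak1, Mcl1 and Bax (vertical axes, normalized expected count) against the share of expected reads taken by Rn18s-rs5 in percent (horizontal axes) in each of the 18 libraries, with a colour for each group. Bak1 runs up and Bax runs down with the share, and the libraries at 37.0% and 69.4% are the 2 that stand apart.

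No member passed the test between Dock2-deficient and WT cells. In naive cells 0 of 9 passed (limma; 2 at an unadjusted p below 0.05), where 0.138% of all genes did and 6.10% were below 0.05 unadjusted. In memory cells it was 0 of 9 (1 at an unadjusted p below 0.05), where 0.0530% of all genes passed and 16.4% were below 0.05 unadjusted. The 95% intervals set the size of what could have been missed: for Bcl2 they ran from -0.37 to 0.55 in memory and from -0.77 to 0.16 in naive cells on the log2 scale, for Mcl1 from -0.80 to 0.17 and from -0.60 to 0.36, and for Bax from -0.20 to 0.83 and from -0.19 to 0.84.

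Pmaip1 had the largest genotype difference of the tested members, in naive cells. There it averaged 20.6 ± 7.76 in Dock2-deficient (SD, n = 5) and 4.42 ± 7.93 in WT libraries (SD, n = 4), a difference of 3.01 ± 0.63 on the log2 scale that did not pass (adjusted p = 0.063). WT naive library 2, at 16.3, was the library that made the groups overlap, and without it the log2 fold change was 3.93 (adjusted p = 2.7e-04). With a term for sex it was 2.90 (adjusted p = 0.93), and with quantile normalization it passed (adjusted p = 0.041); over 10 alternative settings the adjusted p ran from 0.041 to 0.93 and the log2 fold change from 1.18, with a pseudocount of 10, to 4.26, with voom weights. In memory cells Pmaip1 averaged 30.4 ± 11.1 in Dock2-deficient and 15.4 ± 4.72 in WT libraries (0.90 ± 0.63, adjusted p = 0.47). Averaged over both states, 0 of 9 members passed, Pmaip1 being closest (1.95 ± 0.44, adjusted p = 0.057), where 0.371% of all genes passed. Beside this, the gamma delta T cell sum and the memory genes Ccl5 and Cxcr3 given above were higher in all Dock2-deficient naive than in all WT naive libraries. The part of these markers or of sex in the Pmaip1 values, or in the other naive comparisons of the genotypes, was not tested.

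Bcl2l11 and Bak1 were the other tested members below 0.05 before adjustment in naive or memory cells. Bcl2l11 was 22.1 ± 10.4 in Dock2-deficient naive (SD, n = 5) and 33.7 ± 5.39 in WT naive libraries (SD, n = 4; -0.69 ± 0.28, adjusted p = 0.70), and in memory cells its log2 fold change was -0.03 ± 0.28. Bak1 was 8.43 ± 4.83 in Dock2-deficient memory and 24.8 ± 17.5 in WT memory libraries (-1.46 ± 0.54, adjusted p = 0.25), the libraries that stood apart being the highest and the lowest. These Bak1 values stand for 2 to 14 expected reads in Dock2-deficient memory and 11 to 58 in WT memory libraries. The difference between the memory changes of the genotypes passed for 0 of 9 members, where 0.0318% of genes passed. Unadjusted, 2 were below 0.05, against 5.21% of genes: Bak1 (-2.03 ± 0.76) and Pmaip1 (-2.11 ± 0.89), each with an adjusted p of 0.82.

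**Figure D4:**
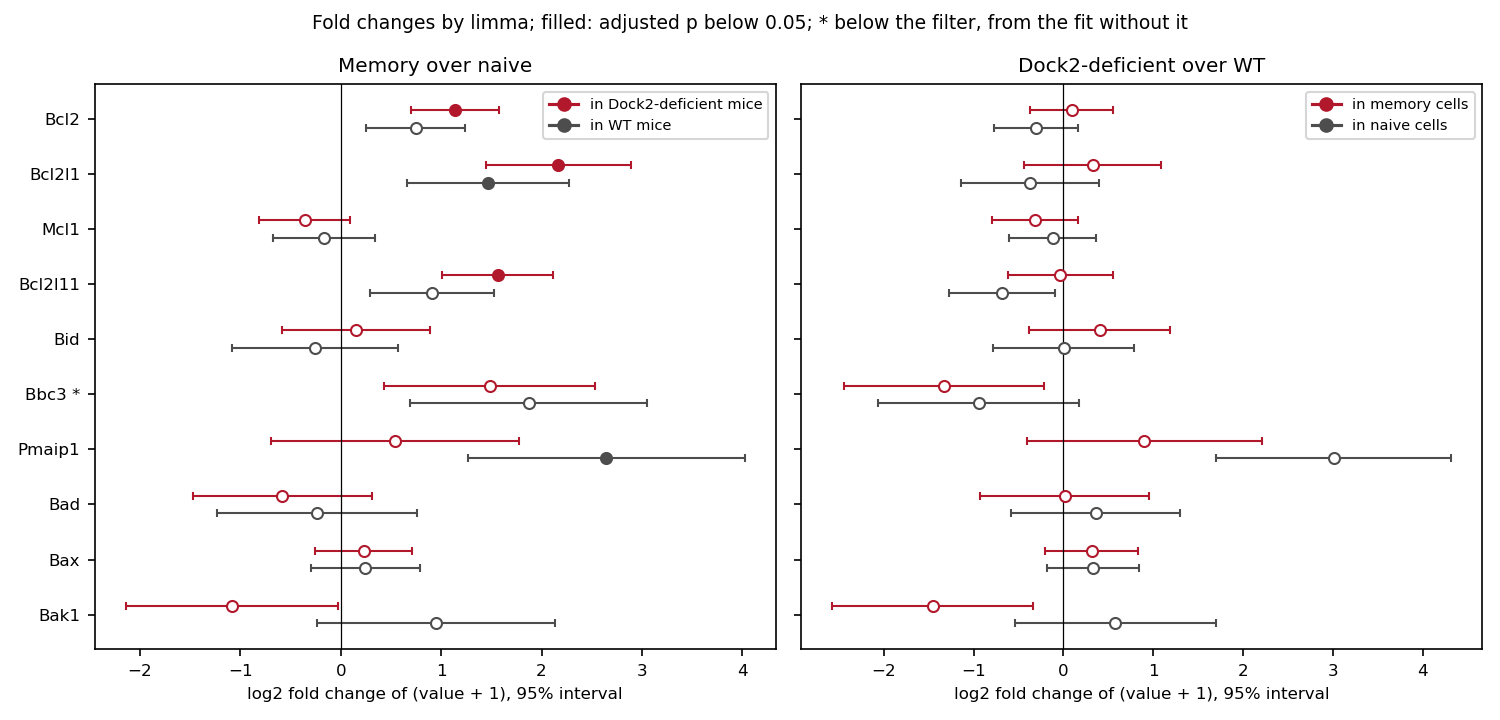
Log2 fold change of (value + 1) with its 95% interval (horizontal axes) for each member (vertical axis), memory over naive on the left and Dock2-deficient over WT on the right; filled points passed an adjusted p of 0.05, and Bbc3 comes from the fit without the filter. Bcl2, Bcl2l1 and Bcl2l11 lie right of 0 in both genotypes on the left, and no point on the right is filled.

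Per kilobase of exon, which allows genes to be set side by side, Mcl1, Bax and Bcl2 were the 3 highest members in every group. In Dock2-deficient memory cells the level per kilobase was 35.7 ± 10.7 for Bax, 33.1 ± 9.07 for Mcl1 and 30.5 ± 5.83 for Bcl2 (SD, n = 5), neighbours that did not differ beyond their spread. In WT memory cells it was 40.3 ± 8.82 for Mcl1, 28.8 ± 6.71 for Bcl2 and 27.8 ± 2.67 for Bax (SD, n = 4). In Dock2-deficient naive cells Mcl1 stood at 41.2 ± 5.95, Bax at 29.6 ± 4.06 and Bcl2 at 13.9 ± 3.76, and in WT naive cells Mcl1 stood at 45.0 ± 8.23, Bax at 24.1 ± 7.10 and Bcl2 at 16.9 ± 2.60. Bcl2l1 took the place below these 3 in memory cells (14.2 ± 2.18 in Dock2-deficient and 11.4 ± 2.48 in WT mice) and Bid in naive cells (10.3 ± 5.43 and 9.29 ± 2.14). Bbc3 was last in every group except WT memory, where Bad was. These levels use the union of annotated exons, which need not be the transcripts these cells make.

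Ratios within a library do not depend on the scaling between libraries. Mcl1 over Bcl2l11 was 1.82 ± 0.53 in Dock2-deficient memory (SD, n = 5; 1.09 to 2.39) and 7.34 ± 2.73 in Dock2-deficient naive cells (3.73 to 10.8). It was 2.17 ± 0.53 in WT memory (SD, n = 4; 1.64 to 2.90) and 4.66 ± 1.18 in WT naive cells (3.51 to 6.17), so every memory library was below every naive library. Bcl2 over Bcl2l11 overlapped between states, at 4.64 ± 1.64 in Dock2-deficient memory and 6.71 ± 2.94 in Dock2-deficient naive cells, and at 4.10 ± 0.67 in WT memory and 4.63 ± 0.58 in WT naive cells. Bcl2 over Mcl1 was 2.74 ± 1.35 in Dock2-deficient memory and 0.913 ± 0.261 in Dock2-deficient naive cells, with no overlap, and 2.02 ± 0.73 in WT memory and 1.02 ± 0.18 in WT naive cells, with overlap. Bcl2l1 over Bcl2l11 averaged higher in memory cells, with overlap. It was 1.05 ± 0.19 in Dock2-deficient memory and 0.79 ± 0.42 in Dock2-deficient naive cells. In WT mice it was 0.82 ± 0.14 in memory and 0.60 ± 0.33 in naive cells. Bcl2 over Bax also overlapped, at 5.14 ± 1.11 and 2.75 ± 0.75 in Dock2-deficient memory and naive cells. Its WT values were 6.11 ± 1.85 in memory and 4.42 ± 1.72 in naive cells. No test was run on ratios, which are of counts not corrected for gene length.

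**Figure D5:**
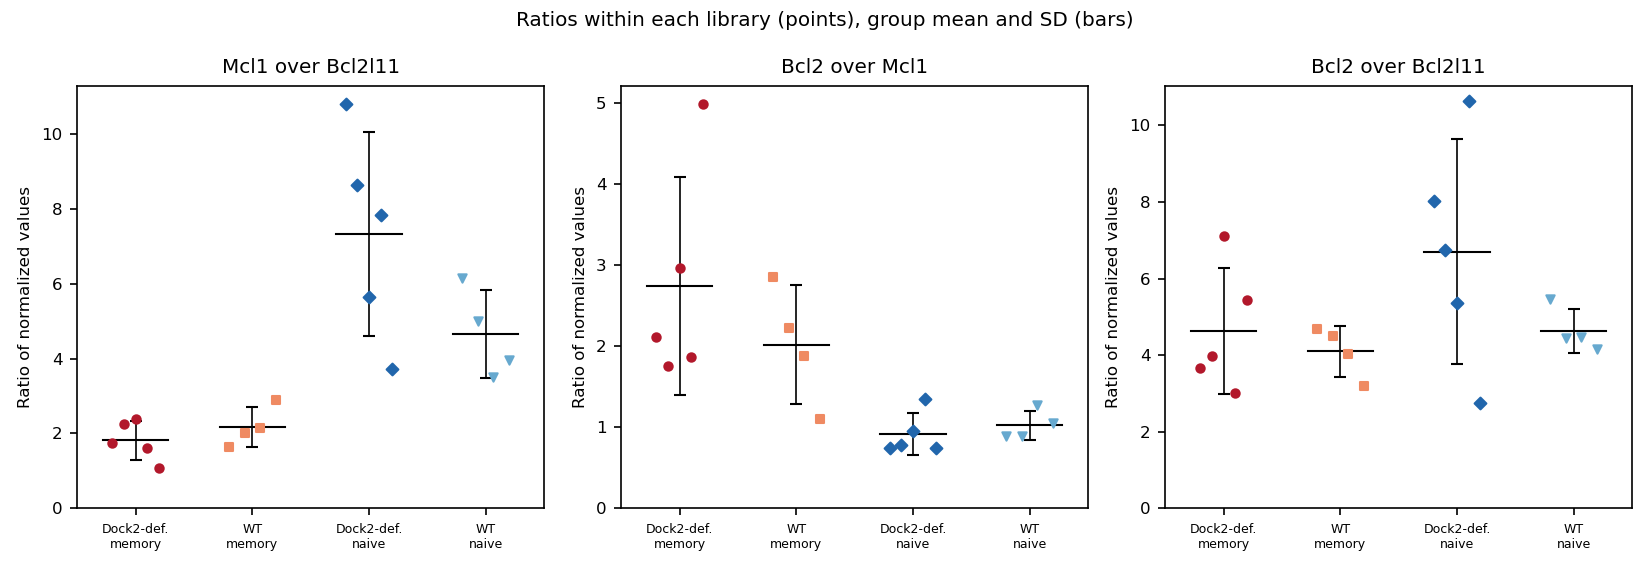
Ratio of normalized values within each library (points) for Mcl1 over Bcl2l11, Bcl2 over Mcl1 and Bcl2 over Bcl2l11 (vertical axes) in the 4 groups (horizontal axes), with the group mean and SD as bars. Mcl1 over Bcl2l11 is at most 2.90 in memory and at least 3.51 in naive libraries.

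Around the members, 6 lists of genes of the same pathways were read in the same fit. Of 15 other BCL2 family genes only 4 had enough signal, and 0 passed in any comparison. The BNIP3 relative Bnip3l, which marks mitochondria for removal, averaged 110.4 ± 17.8 in Dock2-deficient memory and 129 ± 32.5 in Dock2-deficient naive cells, and 111 ± 36.3 in WT memory and 99.1 ± 7.85 in WT naive cells. Bcl2a1b, a guardian gene whose copies are nearly identical so that its value is uncertain, averaged 15.2 ± 3.18 in Dock2-deficient memory and 12.4 ± 7.37 in Dock2-deficient naive cells, and 11.7 ± 3.62 in WT memory and 8.39 ± 2.13 in WT naive cells. None of 17 tested genes (of 19) for the steps after the mitochondrion, such as caspases, cytochrome c and their inhibitors, passed. None of 10 (of 11) death receptor genes passed either, Fas in Dock2-deficient mice coming closest at 13.1 ± 2.72 in memory and 28.2 ± 11.3 in naive cells (-1.005 ± 0.27, adjusted p = 0.051). None of 8 (of 10) genes for regulators of member proteins passed. Averaged over genotypes, the median log2 fold change of memory over naive was -0.24 for the other BCL2 family genes, -0.11 for the steps after the mitochondrion, -0.18 for death receptor genes and 0.08 for the regulators, against -0.02 over all genes.

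Of the genes upstream of the family, few passed between states. Il2rb, the receptor chain shared by interleukin 2 and interleukin 15, was 2994 ± 688 in Dock2-deficient memory and 456 ± 171 in Dock2-deficient naive cells (log2 fold change 2.77 ± 0.24, adjusted p = 1.5e-07), and 3804 ± 512 in WT memory and 309.9 ± 71.7 in WT naive cells (3.63 ± 0.27, adjusted p = 1.5e-08). It was the only one of 13 tested cytokine and kinase genes (of 14) to pass within a genotype, and the median of the 13 averaged over genotypes was 0.30. Averaged over genotypes 2 of 13 rose, Il2rb and Jak1, and 1 fell, Stat5b, where 3.43% of all genes were higher and 2.16% lower. Jak1, a kinase under these receptors, had a log2 fold change of 0.43 ± 0.11 (adjusted p = 0.025). It did not pass without WT naive library 2 or WT memory library 3 (adjusted p = 0.052 and 0.057), and it was lost in 3 of 10 alternative settings: quantile normalization (0.20, adjusted p = 0.53), scaling to one total outside ribosomal and mitochondrial genes (0.26, adjusted p = 0.33) and a replicate block (adjusted p = 0.11). Stat5b, a transcription factor they activate, had -0.72 ± 0.18 (adjusted p = 0.019), which was lost with a replicate block (adjusted p = 0.064) and held in the other 9 alternative settings. Of 8 tested transcription factors (of 9) known to act on BH3-only genes, 1 passed, in WT mice, where 0.646% of all genes were lower: Foxo1, a forkhead factor known to raise Bcl2l11. It was 82.0 ± 29.5 in WT memory and 150.6 ± 20.3 in WT naive cells (-0.93 ± 0.24, adjusted p = 0.043), and 106 ± 18.2 in Dock2-deficient memory and 159 ± 28.02 in Dock2-deficient naive cells (-0.58 ± 0.22, adjusted p = 0.22). Of 8 fits without 1 WT library the Foxo1 call held only without WT memory library 2, it held in 5 of 11 alternative settings (adjusted p 0.023 to 0.15), and averaged over genotypes it was -0.75 ± 0.16 (adjusted p = 0.0056).

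The genes whose pattern over the 18 libraries was most like that of each member are given as a description, by Pearson's r of log2 values. For Bcl2 they were Ppm1j (0.89), Kcnj8 (0.88) and Aim1 (0.87). For Bcl2l1 they were Ccl4 (0.90), Osbpl3 (0.89) and Samd3 (0.88). For Bcl2l11 they were Xcl1 (0.92), Ppm1j (0.89) and Lax1 (0.88), so that Ppm1j stood near both Bcl2 and Bcl2l11. Bax was most like Cdc37 (0.94) and Ndufa13 (0.93), and Bak1 most like Thy1 (0.92) and Irf2 (0.91). Mcl1 was most like Zc3h3 (0.86), Pmaip1 like Pltp (0.83), Bad like Ubxn11 (0.84) and Bid like Snrpa1 (0.82). With group means taken out, r was 0.57, 0.61 and 0.61 for the genes named for Bcl2, in that order. It was 0.60, 0.50 and 0.52 for those of Bcl2l1, and 0.70, 0.59 and 0.19 for those of Bcl2l11. For Bax it was 0.91 and 0.94, and for Bak1 0.91 and 0.89. For Mcl1, Pmaip1, Bad and Bid it was 0.81, 0.45, 0.85 and 0.87.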

How the data were processed

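Libraries were made with Smartseq2, which does not mark strand, from RNA of a Qiagen RNAeasy kit, per the labels' protocols. The submitters' processing notes name RSEM, bcl2fastq, FastQC and the build mm10. Tool versions, aligner and annotation are not given in the sources used here. In the authors' deposited table, values are a normalized signal per gene: RSEM expected counts that the authors divided by a factor of each library. The factor could be read back because 100% of the values lie on steps of 0.01 reads, and it equals a median ratio over 8606 genes. Only 59.5% to 69.3% of values came out whole within 0.005, so no count model was run. Groups and replicate numbers came from sample titles. Same-group libraries differed beyond sampling noise (chi-square per degree of freedom 4.65 to 70.4).

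Values were tested as log2(value + 1), which understates the change of low genes, with limma 3.58.1 in R 4.3.3: 9437 genes that reached 10 in 4 or more libraries, 1 mean per group over all 18 libraries, 14 residual degrees of freedom, variances moderated along a trend, two-sided tests and Benjamini-Hochberg adjusted p below 0.05. The script was tested on simulated data. Alternatives were another pseudocount, filter, scaling or set of libraries, voom weights, a sex term and a replicate block. The members, the lists of other genes and the markers were chosen with earlier results of these data known. Named from the lists were genes past the threshold, and for likeness the 3 named genes with the highest r for each member; Bnip3l, Bcl2a1b, Fas and the single markers were named after their values were seen. Positions came from GENCODE M21, which held 98.9% of the gene identifiers, and promoter windows from RefSeq on GRCm38.p6. Tables and plots were made in Python 3.11.15 (matplotlib 3.10.9, scipy 1.17.1, pandas 2.3.3, numpy 2.4.6).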

Additional observations from a re-analysis of the deposited data

Results flagged for a closer look

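In 40 sets of values, 10 genes in 4 groups, 2 had a library whose gap to the next was large for the group's range; chance gives about 1 in 20. Bak1 was 50.7 in WT memory library 4, where the other 3 libraries were at 14.1 to 20.2. This library had the highest ribosomal share, 69.4%. Pmaip1 was 16.3 in WT naive library 2, where the other 3 libraries were at 0 to 1.40, and that value rests on 9 expected reads.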

How the results depend on the processing

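In Dock2-deficient mice Bcl2l1 and Bcl2l11 passed in 12 of 12 alternative settings and Bcl2 in 11 of 12, and all 3 in 10 of 10 fits without 1 library; Bcl2 missed when libraries were scaled to one total outside ribosomal and mitochondrial genes (0.82, adjusted p = 0.055), where the median of all genes moved to -0.31. Under that scaling 38.3% of the called genes were higher in Dock2-deficient memory cells, against 62.8% before, and 42.9% against 61.4% averaged over genotypes. In WT mice the count of members called, 2, was 1 with a pseudocount of 10, with that scaling, with voom weights, with a sex term, with both libraries that stood apart left out and with a replicate block, 0 with no filter, with a filter of 50 and with only the compared libraries fitted, and 0 to 1 without 1 library. Between genotypes in naive cells, and averaged over states, the count of 0 became 1 (Pmaip1) with quantile normalization and was 0 to 1 without 1 library, 1 being without WT naive library 2 and, averaged, also without Dock2-deficient memory library 4. No other count of members moved by over 1.5 times, and no called value changed sign. Same-numbered libraries did not deviate together (correlations -0.25 to 0.30, 3 of 9 above 0.1), and 3 of 9 memory libraries were closest to their own number. Such correlations cannot show whether same-numbered libraries share a mouse, and the labels do not say. Library 1 was the only female one in both Dock2-deficient groups. In the block fit Bcl2l1 in WT was 1.47 (adjusted p = 0.084). Counts over all genes moved by over 1.5 times as follows. With a filter of 50, WT memory against naive gave 140 (238 before), the average over genotypes 333 (528), Dock2-deficient against WT memory 2 (5), the average over states 23 (35) and the interaction 1 (3). With no filter these last gave 10 in memory, 21 averaged and 0 for the interaction. A pseudocount of 10 gave 16 in memory. Voom weights gave 6 in naive cells (13 before), 13 averaged and 0 for the interaction. A sex term gave 3 in naive, 0 in memory and 2 averaged. With only the compared libraries, naive gave 8 and memory 3. Quantile normalization gave 56 averaged. The interaction was also 0 under the block and without both libraries that stood apart. Without 1 library the counts were 9 to 19 in naive, 3 to 13 in memory, 20 to 56 averaged and 0 to 2 for the interaction. Beyond the stricter filter, which tested 4677 genes, and the fits with fewer libraries, the cause was not tested. Values of under about 10 expected reads, as for Bbc3, for Pmaip1 in WT naive cells and for some Bak1 values, limit what depth can show.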
